A study of Mus musculus with 10 samples.

Results

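Mitochondrial ribosomal protein genes are the protein-coding mouse genes whose symbols begin with Mrpl or Mrps and a number. By that rule 77 of the 39179 listed genes were members, 48 with Mrpl and 29 with Mrps symbols, and they lay on 17 chromosomes. The name and the structure differ in places: 50 members belong to the large subunit of the mitochondrial ribosome, Mrps18a and Mrps30 among them, 26 belong to the small subunit, and Mrps36 belongs to neither, since it is now known as a part of the alpha-ketoglutarate dehydrogenase complex. Mrpl33 was not analysed here.

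The series measured total RNA of the tibialis anterior, a fast leg muscle, in mice with and without tumors of Lewis lung carcinoma (LLC) cells, a mouse lung cancer line that causes cachexia, the wasting of muscle and fat. The 6 LLC mice carried tumors grown from cells injected under the skin of both flanks, and the 4 Control mice received the saline carrier alone. Sample labels gave the mice as C57BL/6J and 10 weeks old, with 23 days of tumor development for LLC and 0 for Control. The design text instead gave C57BL/10 males, 8 weeks old and 22 days. Per the study's methods, the LLC mice were survivors of the whole period, all libraries shared 1 sequencing lane, and each library came from 1 mouse.

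Mitochondria keep a small genome that codes for core subunits of the respiratory chain, and they translate its messenger RNAs on a ribosome of their own. The ribosomal RNAs of that ribosome are made inside the organelle, whereas every one of its proteins is coded in the nucleus, made in the cytosol and imported. Skeletal muscle, and its oxidative fibres above all, depends on this ribosome to keep its respiratory chain supplied.

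Across the series, the Control libraries held 19294257 to 21303084 counts and the LLC libraries 16693209 to 19962335, and an exact two-sided permutation test gave p = 0.0381 for that difference. Genes of the mitochondrial genome took 28.4% to 30.7% of counts in Control and 22.0% to 27.9% in LLC (p = 0.00952, the smallest that the exact permutation test allows with these groups). LLC 1 stood apart, with the lowest summed level of the members and the lowest respiratory chain. The 8 fast-fibre marker genes summed to between 117700 and 124800 CPM (counts relative to the scaled library size) in Control and between 81660 and 128000 in LLC, and none of the 8 passed the test, although 3 of 8 did without LLC 1, where 14.2% of all genes had an adjusted p of at most 0.05 by edgeR. The summed level of 8 neutrophil markers was 0.742 to 2.27 CPM in Control and 32.6 to 69.2 in LLC, with all 7 that could be tested higher, and that of 6 fibroblast markers was 251 to 321 CPM in Control and 50.3 to 84.8 in LLC, with all 6 lower. Red blood cell markers summed to 58.8 to 83.4 CPM in Control and 88.7 to 144 in LLC, with 5 of 5 higher. Macrophage markers summed to 9.53 to 16.2 CPM in Control and 5.68 to 12.4 in LLC, with 4 of 5 tested lower. Slow-fibre markers summed to 28.2 to 37.0 CPM in Control and 23.9 to 44.0 in LLC (4 of 5 lower). For endothelial markers the sums were 219.6 to 285 CPM in Control and 207.8 to 244.9 in LLC (3 of 5 lower). For adipocyte markers they were 153 to 190.1 CPM in Control and 142 to 206 in LLC (2 of 3 tested lower). The adjusted p was at most 0.05 by edgeR for 3 red blood cell, 1 macrophage, 1 slow-fibre, 3 endothelial and 0 adipocyte markers. No marker was at 0 in every sample, and the part of any of these shifts in the members' values was not tested. In whole muscle, fewer cells of a type and less RNA per cell cannot be told apart.

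No mitochondrial ribosomal protein gene passed the test between LLC and Control muscle. Genes were compared with the quasi-likelihood test of edgeR, p-values were adjusted by Benjamini and Hochberg over all 12690 genes tested, and a gene was called at an adjusted p of at most 0.05 and a change of at least 1.5-fold. The test called 0 of the 76 members tested, against 5.63% of all genes, and the adjusted p alone also called 0, against 6.99%. Of 7485 other protein-coding genes with Control levels in the members' range, 256 were called and 396 passed the adjusted p alone. The members nonetheless sat slightly low: 54 of 76 had a negative log2 fold change against 49.7% of all genes, with a median of −0.12 for the members (a fold of 0.918) and 0.00 for all genes. At an unadjusted p of at most 0.05 there were 17 members, each lower in LLC, which is 22.4% of those tested, where all genes gave 14.6% lower and 27.4% in either direction. Other tests called a few members at the adjusted p alone: 7 (9.21%) with limma voom and sample weights, where 17.9% of all genes passed, and Mrpl12 with DESeq2 (11.9% of all genes), without the filter on low counts (4.04%) and with a GC and length offset (7.24%). The 7 were Mrpl3, Mrpl4, Mrpl12, Mrpl51, Mrpl55, Mrps5 and Mrps11, all lower in LLC.

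The intervals show how large a change these samples leave room for. Of the 76 members, 65 had a 95% interval of the fold change wholly inside 1.5-fold in either direction (85.5%), compared with 49.4% of all genes tested. All genes include many at lower levels. Among the 7485 other protein-coding genes in the members' range of Control levels, 4831 had such an interval. The interval reached a 1.5-fold decrease for 9 members (Mrpl12, Mrpl18, Mrpl19, Mrpl28, Mrpl34, Mrpl46, Mrps11, Mrps22 and Mrps36), named here after their values were seen, and a 1.5-fold increase for Mrpl32 and Mrps30. The log2 fold changes themselves ran from −0.56 for Mrpl12 to 0.37 for Mrps30, and the middle 50% of members lay between −0.23 and 0.01. The values in the LLC mice overlapped those of Control for most members. In 11 members, 14.5% of those tested, every LLC sample was below every Control sample (9.57% of all genes), and in 0 was every LLC sample above (6.40% of all genes). In the 7485 genes at the members' levels, these counts were 611 below and 579 above.

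**Figure D1:**
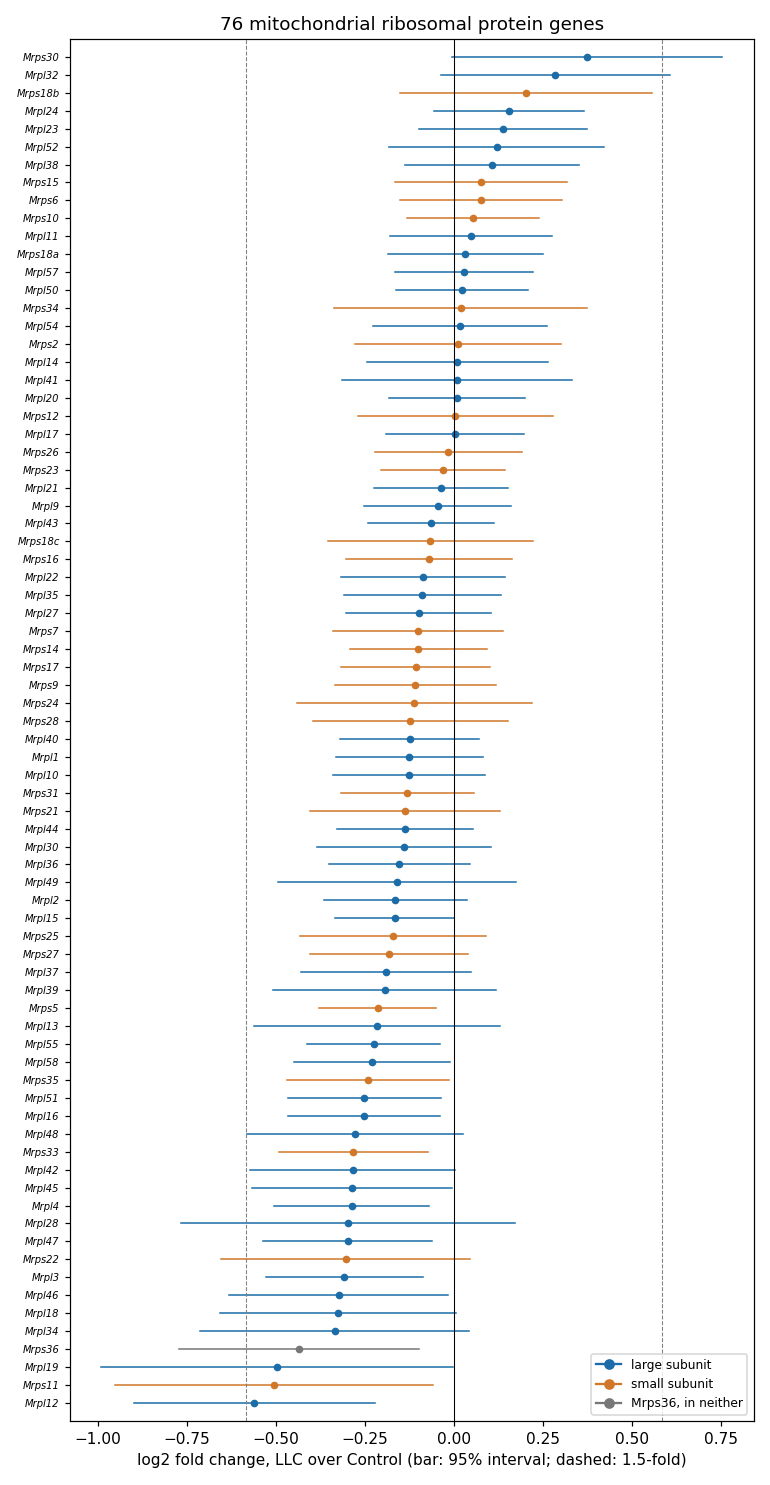
Fitted log2 fold change of LLC over Control (horizontal axis) for the 76 tested members, ordered by value, with 95% intervals as bars, colour for the subunit and dashed lines at 1.5-fold. The quartiles of the points are −0.23 and 0.01, and Mrpl12 at the bottom and Mrps30 at the top mark the ends at −0.56 and 0.37.

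The small downward shift was shared by both subunits. The 49 tested genes of the large subunit had a median log2 fold change of −0.14, with 34 lower, and the 26 of the small subunit had a median of −0.10, with 19 lower. Proteins that the current naming gives a bacterial counterpart, the ancestral core of the ribosome, had a median of −0.11 over 45 genes, and those it names as mitochondria-specific had a median of −0.13 over 30 genes. Whether these groups differ was not tested. The 31 members whose exons overlap those of another gene had a median of −0.14, and the 45 without such overlap had −0.11. Not every such overlap is named below.

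The LLC mice did not behave alike. The summed level of all members was 2664, 2654, 2723 and 2531 CPM in Control 1 to 4 and 2050, 2532, 2559, 2355, 2633 and 2239 CPM in LLC 1 to 6, a Control mean of 2643 ± 80.8 (SD, n = 4) and an LLC mean of 2395 ± 223 (SD, n = 6). LLC 1, 4 and 6 were below every Control sample, LLC 2 and LLC 3 sat at its lower edge, and LLC 5 was inside the Control range. LLC 1, 4 and 6 had 53, 52 and 54 of the 76 members below all Control values, whereas LLC 5 had 24 below and 32 above. For 72 of 76 members the SD of log2 CPM was larger among LLC than among Control samples, and the same held for 85.1% of all genes. Without LLC 1 the median log2 fold change of the members was −0.08, and without LLC 5 it was −0.15.

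Scaling sets the sign of this shift. With plain library totals in place of the normalization factors, the median of all genes moved by 0.14 on the log2 scale, the members' median became 0.01, and 35 of 76 (46.1%) were lower. Upper-quartile factors gave 65 of 76 lower (85.5%), against 71.1% with the main factors. The distance between the members and all genes was −0.12 to −0.13 under each of the 5 scalings compared. As a share of all counts in the library, before any scaling, the members took 0.250% in Control on average and 0.248% in LLC.

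Next to the members stood the cytosolic ribosomal proteins, which build the ribosome outside the organelle. The list used for them left out the Rpl genes whose symbols end in 1 digit, so it is not the whole family. Of its 72 genes, 71 were higher in LLC with a median log2 fold change of 0.31, and none passed the adjusted p. The nuclear-encoded subunits of the respiratory chain had 82 of 82 lower with a median of −0.34, and 1 passed. With plain library totals these counts were 72 higher of 72 and 75 lower of 82. Without LLC 1, 29 of the 82 respiratory chain genes passed the adjusted p with a median of −0.23, and 2 of the 72 cytosolic genes passed with a median of 0.26. The sample medians of the 3 families parted most in LLC 1, where the mitochondrial ribosomal proteins lay 0.31 below the Control mean on the log2 scale, the respiratory chain 0.93 below it, and the cytosolic ribosomal proteins 0.59 above it. In LLC 5 the cytosolic proteins lay 0.65 above and the mitochondrial ribosomal proteins 0.04 above.

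**Figure D2:**
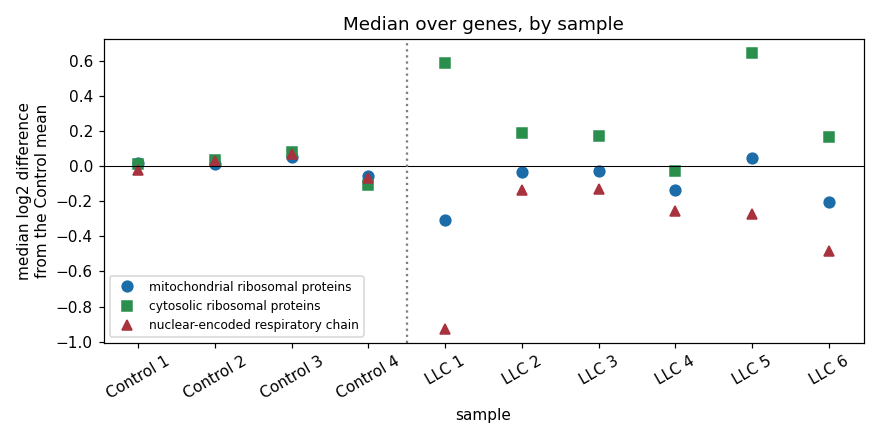
Median over genes of the log2 difference from the Control mean (vertical axis) in each of the 10 samples, for the mitochondrial ribosomal proteins, the cytosolic ribosomal proteins and the nuclear-encoded respiratory chain. The cytosolic series leaves out part of the Rpl genes, as given in the text. The mitochondrial ribosomal proteins run from −0.31 in LLC 1 to 0.04 in LLC 5, and lie between the cytosolic ribosomal proteins above and the respiratory chain below in each of the 6 LLC samples.

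Mrpl12 had the largest decrease and the smallest p of all members. It encodes the protein of the mobile stalk of the large subunit, which recruits translation factors, and it also binds the mitochondrial RNA polymerase. The gene (ENSMUSG00000039640) lies on chromosome 11 from 120484613 to 120489065 on the forward strand of mm10, and its exons overlap those of the antisense gene Gm16755. Its level was 88.7, 82.9, 91.9 and 81.0 CPM in Control 1 to 4 and 36.4, 69.2, 68.8, 63.0, 59.8 and 53.2 CPM in LLC 1 to 6. All LLC samples lay below all Control samples, with LLC 1 the lowest. The log2 fold change was −0.56 ± 0.16 (SE; 95% interval −0.90 to −0.22) and the adjusted p was 0.0515 by edgeR's quasi-likelihood test, short of both the adjusted p and the 1.5-fold limit, since the fold was 0.678. Over 23 alternative analyses the adjusted p ran from 0.00293 to 0.278 and passed 0.05 in 7 of them, the test without LLC 1 included. Without LLC 2 (log2 fold change −0.60, adjusted p = 0.0440) or without LLC 3 (−0.61, adjusted p = 0.0495), Mrpl12 passed the full threshold by the same test.

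The other proteins of the stalk did not share that size of difference. Mrpl10, which anchors the Mrpl12 copies to the ribosome, was at 28.3, 26.9, 28.5 and 26.2 CPM in Control and 20.6, 27.3, 27.2, 26.3, 26.8 and 23.0 CPM in LLC. Its log2 fold change was −0.13 ± 0.10 (SE; 95% interval −0.34 to 0.09), and LLC 2 to 5 lay within the Control range. Mrpl11, at the base of the stalk, had 34.8, 32.0, 32.7 and 31.0 CPM in Control and 34.2, 35.01, 34.7, 28.5, 40.4 and 29.7 CPM in LLC, with a log2 fold change of 0.05 (95% interval −0.18 to 0.27). Whether Mrpl12 differed from Mrpl10 or Mrpl11 was not tested.

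**Figure D3:**
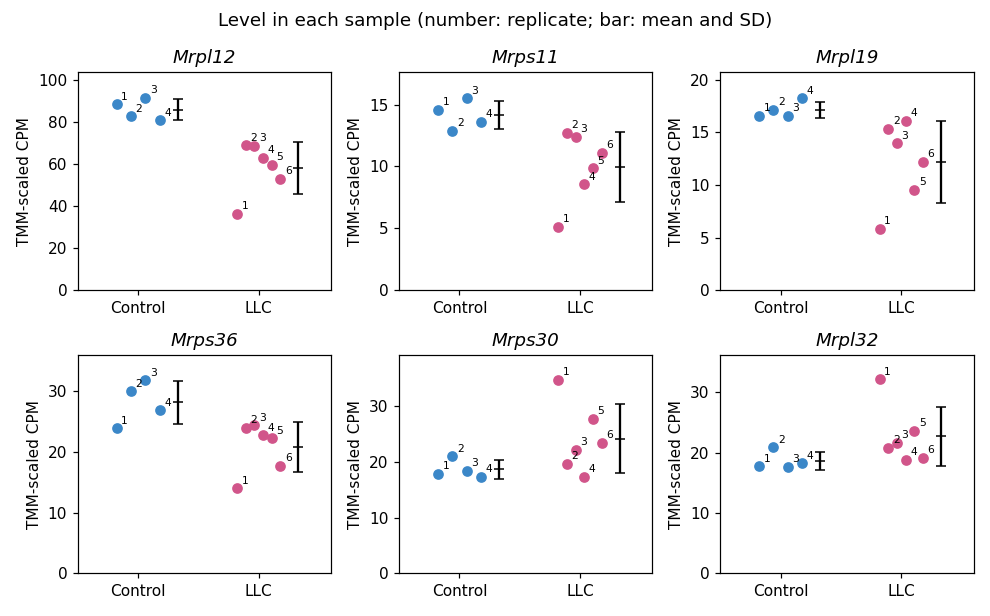
TMM-scaled CPM (vertical axis, from 0) of Mrpl12, Mrps11, Mrpl19, Mrps36, Mrps30 and Mrpl32 in each Control and LLC sample, numbered by replicate, with the group mean and SD as a bar. LLC 1 is the lowest sample for the first 4 genes and the highest for Mrps30 and Mrpl32.

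Mrps11 and Mrpl46 lie head to head on chromosome 7, with starts 412 bases apart, and their exons overlap on opposite strands. Mrps11 (ENSMUSG00000030611; 78783119 to 78792989, forward strand) encodes a protein of the small subunit platform. It was at 14.6, 12.9, 15.5 and 13.6 CPM in Control and 5.14, 12.7, 12.4, 8.57, 9.87 and 11.1 CPM in LLC. Every LLC value was under every Control value, although LLC 2 at 12.7 came close to Control 2 at 12.9, and the log2 fold change was −0.51 ± 0.20 (SE) with an adjusted p of 0.143 by edgeR. Mrpl46 (ENSMUSG00000030612; 78775236 to 78783531, reverse strand), a large subunit protein, had a log2 fold change of −0.32 ± 0.14 (SE; adjusted p = 0.165 by edgeR), and its groups did not overlap either. The strand setting of the counting is not stated beyond the counter's defaults, so reads in the shared exon may have been credited to either gene or to neither.

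Mrpl19, a large subunit protein at the interface of the subunits, was at 16.6, 17.1, 16.6 and 18.2 CPM in Control and 5.81, 15.4, 14.0, 16.1, 9.52 and 12.2 CPM in LLC. The groups did not overlap, but LLC 4 came close to Control 1 and 3, and the spread among LLC mice was wide. The log2 fold change was −0.50 ± 0.23 (SE; adjusted p = 0.180 by edgeR). The exons of Mrpl19 overlap those of Gcfc2 on the other strand. Mrps36 was at 23.9, 29.97, 31.7 and 26.8 CPM in Control and 14.0, 23.9, 24.3, 22.7, 22.2 and 17.7 CPM in LLC, with a log2 fold change of −0.43 ± 0.15 (SE; adjusted p = 0.108 by edgeR), and LLC 2 and 3 lay just above Control 1. Its 3 processed pseudogenes, Mrps36-ps1 to Mrps36-ps3, could have taken part of its reads.

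Mrpl3, which reaches towards the peptidyl transferase centre, was at 38.7, 39.5, 40.1 and 35.2 CPM in Control and 26.0, 31.5, 34.5, 35.7, 29.0 and 29.2 CPM in LLC. Its log2 fold change was −0.31 ± 0.10 (SE; adjusted p = 0.0895 by edgeR), and LLC 4 alone lay above the lowest Control sample. The exons of Mrpl3 overlap those of Gm38077 on the same strand and Gm47106 on the other. Mrpl4, a tunnel protein, had 42.5, 42.6, 44.5 and 41.8 CPM in Control and 27.5, 36.2, 39.9, 36.1, 36.5 and 34.3 CPM in LLC, without overlap, and a log2 fold change of −0.29 ± 0.10 (SE; adjusted p = 0.101 by edgeR). Without LLC 1, Mrpl4 and Mrpl12 passed the adjusted p, 2 of 76 members (2.63%) against 14.2% of all genes. Mrpl23 and Mrpl24, both at the tunnel exit, had log2 fold changes of 0.14 ± 0.11 and 0.15 ± 0.10 (SE), with overlapping groups. Mrpl34 had 20.4, 17.2, 20.01 and 20.4 CPM in Control and 8.59, 17.4, 16.8, 17.99, 15.9 and 16.2 CPM in LLC, and a log2 fold change of −0.33 (adjusted p = 0.225 by edgeR). Mrpl18, of the central protuberance, had a log2 fold change of −0.33, and its exons overlap those of Tcp1 on the other strand. Mrpl47 was at −0.30.

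Among the remaining members with small p, Mrps5, near the messenger RNA entry channel, had tight groups that did not overlap. It was at 35.9, 34.0, 35.7 and 35.1 CPM in Control and 28.2, 32.1, 31.5, 31.7, 29.99 and 28.3 CPM in LLC, and the log2 fold change was −0.21 ± 0.08 (SE; adjusted p = 0.104 by edgeR). Mrps33, a small subunit protein with no bacterial counterpart, had a log2 fold change of −0.28 ± 0.10 (SE) with no overlap, and Mrpl55 had −0.23 ± 0.09. Mrpl58 (ICT1), a hydrolase that releases peptides from stalled ribosomes, had −0.23 ± 0.10. Mrps12, in the decoding centre, was at a mean of 21.4 CPM in both groups, with SDs of 0.779 (n = 4) and 3.59 (n = 6) and a log2 fold change of 0.00 (95% interval −0.27 to 0.28).

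The 2 members with the highest log2 fold changes, Mrps30 and Mrpl32, had their highest value in LLC 1. Mrps30 (ENSMUSG00000021731; chromosome 13, 118378381 to 118387252, reverse strand), a large subunit protein despite its name, was at 17.8, 21.04, 18.4 and 17.3 CPM in Control and 34.7, 19.7, 22.2, 17.3, 27.8 and 23.4 CPM in LLC. Its log2 fold change was 0.37 ± 0.17 (SE; adjusted p = 0.186 by edgeR), and LLC 2 and 4 were within the Control range. The exons of Mrps30 overlap those of the antisense gene B430218F22Rik. Mrpl32 (ENSMUSG00000015672; chromosome 13, 14608184 to 14613165, reverse strand), whose precursor is cut by the m-AAA protease of the inner membrane before it joins the ribosome, was at 17.7, 20.8, 17.7 and 18.2 CPM in Control and 32.1, 20.8, 21.6, 18.8, 23.6 and 19.1 CPM in LLC. Its log2 fold change was 0.28 ± 0.15 (SE; adjusted p = 0.226 by edgeR), with LLC 2, 4 and 6 inside the Control range. Mrps18a, Mrps18b and Mrps18c are all related to bacterial S18, although the current naming of ribosomal proteins counts Mrps18c alone as its counterpart. Their log2 fold changes were 0.03 for Mrps18a, 0.20 for Mrps18b and −0.07 for Mrps18c, and none passed the test.

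Levels per length of exon ranked the members much alike in both groups. The Control mean ran over a 46.0-fold range, from 1.83 CPM per kb for Mrps35 to 84.1 for Mrps21, with a median of 13.0 CPM per kb, and Spearman's correlation of the Control and LLC levels across the 76 members was 0.99. This is a description across genes, which share their libraries, and genes are not replicates. Below Mrps21, the highest levels per kb in Control were those of Mrpl12 at 56.2, Mrpl42 at 51.8, Mrps28 at 47.4 and Mrpl18 at 44.0. In LLC the highest levels were those of Mrps21 at 76.5 CPM per kb, Mrps28 at 43.5 and Mrpl42 at 42.5, and Mrpl12 was at 38.1, below Mrps23, Mrpl54 and Mrpl2 as well. The 25 most abundant tested members had a median log2 fold change of −0.14, and the 25 least abundant had −0.12. Mrpl53 was at 0 counts in all 10 samples, where 3 counts correspond to 0.141 to 0.180 CPM, and its exons overlap those of Gm42688 on the same strand and Ccdc142os on the other.

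**Figure D4:**
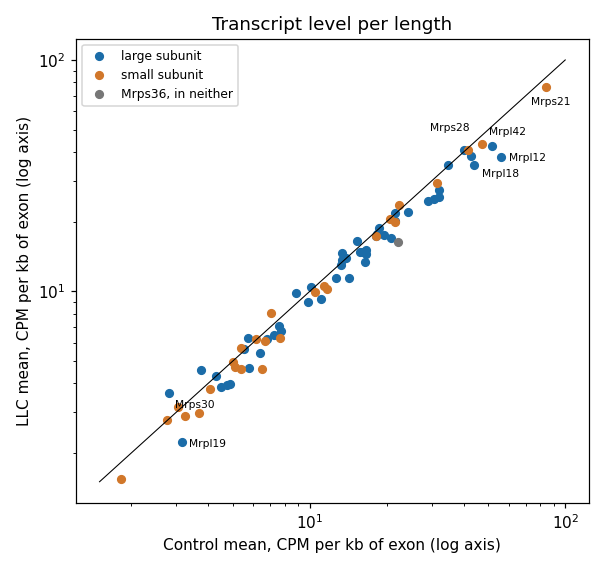
Mean level per length in CPM per kb of exon, Control on the horizontal and LLC on the vertical axis (both log axes), for the 76 tested members coloured by subunit, with the line of equal level. Points follow the line over a 46.0-fold range, and Mrpl12 and Mrpl19 lie below it.

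The promoters of the members shared sequence features that the gene names did not choose. RefSeq windows of 300 bases, from 250 before to 50 after each start, matched 68 of the 77 members and 27025 genes in all. The NRF1 motif with its middle letter left free, the site of a factor known for driving nuclear genes of mitochondria, was present on either strand in 13 members (19.1%) against 5.19% of all genes. The YY1 motif AAGATGGCG was in 8 members (11.8% against 1.64%), the ETS motif CCGGAAGT, read by GABP, was in 11 (16.2% against 4.31%), and the SP1 motif GGGCGG was in 34 (50% against 38.2%). The members' windows were also richer in G and C, with a median of 58.8% against 52.7%, which bears on how often such motifs occur. Within the members the motifs did not sort the changes widely: the median log2 fold change was −0.11 with and −0.12 without the NRF1 motif, −0.17 with and −0.11 without the YY1 motif, and −0.18 with and −0.11 without the ETS motif. The 250 bases before the starts of 3 genes are shown because Mrpl12 and Mrpl32, near opposite ends of the list, both hold an NRF1 match while Mrpl3 holds the ETS match. Capitals mark those matches (GRCm38.p6, 5′ to 3′ along the strand of the gene). The windows are chr11:120484387-120484636 on the forward strand for Mrpl12, chr13:14613038-14613287 on the reverse strand for Mrpl32 and chr9:105053018-105053267 on the forward strand for Mrpl3.
Mrpl12: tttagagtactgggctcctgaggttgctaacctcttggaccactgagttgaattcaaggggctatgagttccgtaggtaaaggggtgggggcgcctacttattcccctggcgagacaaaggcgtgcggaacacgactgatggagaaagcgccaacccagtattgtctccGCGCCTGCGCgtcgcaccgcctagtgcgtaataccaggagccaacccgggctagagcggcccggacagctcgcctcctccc
Mrpl32: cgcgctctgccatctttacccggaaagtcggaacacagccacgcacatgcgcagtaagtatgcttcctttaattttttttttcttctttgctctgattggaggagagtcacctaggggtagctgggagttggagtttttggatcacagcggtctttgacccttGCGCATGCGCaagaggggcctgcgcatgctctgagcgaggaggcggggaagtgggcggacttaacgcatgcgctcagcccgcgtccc
Mrpl3: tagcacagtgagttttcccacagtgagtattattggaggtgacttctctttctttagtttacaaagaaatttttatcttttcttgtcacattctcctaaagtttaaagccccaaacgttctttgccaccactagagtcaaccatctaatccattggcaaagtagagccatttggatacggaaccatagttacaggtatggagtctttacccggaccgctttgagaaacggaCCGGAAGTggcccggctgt

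Members often share a promoter region with a neighbour. Of the 77 members, 33 (42.9%) start within 1000 bases of another protein-coding gene on the opposite strand, against 11.0% of all protein-coding genes. Among the 28 pairs in which both genes were tested, both log2 fold changes were negative in 12, both positive in 5 and of opposite sign in 11. Mrpl47 and Ndufb5, a complex I subunit, were at −0.30 and −0.49, and Mrpl36 and Ndufs6, also of complex I, at −0.15 and −0.28 with starts 29 bases apart. Mrpl32 and the proteasome subunit gene Psma2, 75 bases apart, were at 0.28 and 0.44. Mrpl49 was at −0.16 whereas Fau, a gene of the cytosolic ribosome 59 bases away, was at 0.33, and Mrpl18 was at −0.33 whereas the chaperonin gene Tcp1 was at 0.31. The only partner past the adjusted p was Pnpla7, next to Mrpl41, at 0.82 ± 0.20 (SE; adjusted p = 0.0297 by edgeR). The pairs named here were chosen after their values were seen. Exons overlap on opposite strands in the pairs Mrpl47 and Ndufb5, Mrpl36 and Ndufs6, and Mrpl18 and Tcp1, and in some pairs not named here. Reads in shared exons may have been credited to either gene or to neither, so the 2 values of such a pair may not be separate measurements.

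**Figure D5:**
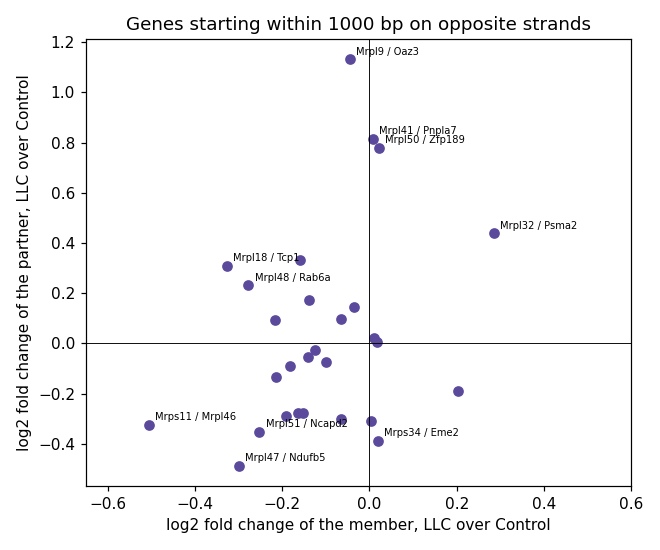
Fitted log2 fold change of each member (horizontal axis) against that of the gene starting within 1000 bases on the other strand (vertical axis), 1 point for each of 28 pairs. Points fall in all quadrants, with 12 in the lower left, 5 in the upper right and 11 where the signs differ. Some pairs overlap in exons on opposite strands, as given in the text.

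In the rest of the mitochondrial translation apparatus, 0 of the 63 genes in 4 lists passed the adjusted p. Of 13 translation factors tested, 11 were lower with a median log2 fold change of −0.27 and 0 passed the adjusted p, with Oxa1l, the inner-membrane insertase, at −0.20 (adjusted p = 0.113) and Gfm1, an elongation factor, at −0.26 (adjusted p = 0.117 by edgeR). Of 20 genes for charging mitochondrial transfer RNAs, 19 were lower with a median of −0.09 and 0 passed, and the lowest p belonged to Qrsl1 at −0.61 (adjusted p = 0.129) and Fars2 at −0.28 (adjusted p = 0.141 by edgeR). Of 25 assembly factors, 16 were lower with a median of −0.11 and 0 passed, led by the ribosomal RNA methyltransferases Mrm1 at −0.70 ± 0.21 (SE; adjusted p = 0.0720) and Mrm3 at −0.34 (adjusted p = 0.0763 by edgeR). The 5 mitochondrial ribosomal proteins that carry other names were all lower, with a median of −0.10 and 0 past the test, and among them Ptcd3 was at −0.36 and Gadd45gip1 at −0.19. With plain library totals 8 of the 20 charging genes, 11 of the 25 assembly factors, 2 of these 5 and 11 of the 13 translation factors were lower. Without LLC 1, 12 of the 20 charging genes were lower with a median of −0.06 and 1 passed the adjusted p, the assembly factors had a median of −0.05 and 2 passed, the 5 other-named proteins had a median of −0.03 and 0 passed, and the translation factors had a median of −0.21 and 0 passed.

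Of 20 genes for transcribing the mitochondrial genome and handling its RNA, 12 were lower, with a median log2 fold change of −0.07, and 1 passed the adjusted p without reaching 1.5-fold. That gene was Supv3l1, a helicase of mitochondrial RNA decay, with a Control level of 19.2 ± 1.44 CPM (SD, n = 4), an LLC level of 15.0 ± 1.47 CPM (SD, n = 6) and a log2 fold change of −0.36 ± 0.10 (SE; adjusted p = 0.0469 by edgeR). Over 23 alternatives its adjusted p ran from 0.0165 to 0.272 and passed 0.05 in 7 of them. Without LLC 1 the list had a median of −0.03 and 4 genes passed the adjusted p, whereas with median-of-ratios factors 0 passed. Of 10 regulators of mitochondrial genes 0 passed and 3 were lower, with Pprc1, a coactivator related to PGC-1, at 0.47 ± 0.15 (SE; adjusted p = 0.0787) and Esrra, the receptor ERR-alpha, at −0.71 ± 0.24 (SE; adjusted p = 0.0977 by edgeR). Without LLC 1, 1 of these regulators passed and their median went from 0.09 to 0.04.

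The RNA products of the organelle itself gave both signs. All 13 messenger RNAs of the mitochondrial genome were lower, from −0.54 to −0.16 with a median of −0.31, and 0 passed the adjusted p. The small ribosomal RNA mt-Rnr1, onto which the small subunit proteins assemble, was at 1298, 1253, 1343 and 1067 CPM in Control and 1929, 1797, 1704, 1457, 1690 and 1550 CPM in LLC. All LLC samples were above all Control samples, and the log2 fold change was 0.44 ± 0.11 (SE; adjusted p = 0.0379 by edgeR, and 0.000908 to 0.203 over 22 alternatives, 10 of which passed). The large ribosomal RNA mt-Rnr2 was at 0.34 ± 0.10 (SE; adjusted p = 0.0583 by edgeR). Together they made up 0.301% of counts in Control on average and 0.433% in LLC. The libraries came from a total RNA kit, and how ribosomal RNA was removed is not given in the sources used here, so these levels are what each library retained.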

How the data were processed

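RNA was measured in 10 tibialis anterior muscles (4 Control, 6 LLC), grouped by the titles. The authors deposited raw read counts per Ensembl gene for each sample. Per the labels and the study's methods, libraries were stranded total RNA, read in pairs on 1 lane, mapped to mm10 with TopHat and counted with HTSeq at default settings over RefSeq genes, although the deposited tables list Ensembl identifiers. Nothing says that replicates were pooled.

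Symbols came from GENCODE M21, which matched 37607 of 39179 identifiers. Counts were tested with edgeR 4.0.16 (R 4.3.3): genes kept by its default filter (minimum count 10), TMM factors, and a quasi-likelihood test with group as the only term. The study's methods used DESeq2, here an alternative (1.42.0), as was limma 3.58.1. Levels are TMM-scaled CPM, and log2 values use a prior count of 2. Depth was 16693209 to 21303084 counts, and the smallest count of a tested member was 88. Intervals of fold changes come from the quasi-likelihood fit and include the spread between mice, whereas floors (3 counts) cover counting error only. The main test was also run on simulated counts, with calls at an adjusted p of at most 0.05. It recovered 16 of 65 genes changed 1.5-fold, 46 of 64 changed 2-fold and 62 of 62 changed 4-fold, with 6 false calls. The changed genes were drawn at random from the tested genes, so this recovery covers genes at all levels. The recovery for the members alone was not tested. Of their intervals, 65 of 76 lay inside 1.5-fold (85.5%), against 49.4% of all genes. P-values weigh the difference between the groups against the spread between these mice. No 2 libraries were alike within sampling noise.

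The members, lists and motifs were chosen with earlier results of these data known. Named members were the 8 with the smallest p, the 5 lowest and the 5 highest log2 fold changes, the 5 highest levels per kb in Control and 10 set by role, along with untested members, and from each list the genes past the adjusted p or otherwise the 2 with the smallest p. The role given to Mrpl47 was corrected after the counts had been opened. Alternatives covered scaling, filtering, test, GC and length, the replicate block and each sample left out. Plain library totals and samples 1 to 4 without the block were chosen after seeing the data.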

Additional observations from a re-analysis of the deposited data

Results flagged for a closer look

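In 30 measures over 60 groups of samples, 4 samples lay farther from the rest of their group than Dixon's 95% limit, where chance gives 3. The gap is the distance to the nearest sample over the range of the group. For the 4 flagged samples it was taken on log2 CPM, whereas the levels printed here are CPM. Mrpl34 was flagged in both groups: Control 2 at 17.2 CPM against 20.01 to 20.4 in the others (gap 0.879), and LLC 1 at 8.59 CPM against 15.9 to 17.99 (gap 0.83). Mrpl18 in LLC 1 was at 30.3 CPM against 48.1 to 58.5 (gap 0.701), and Mrpl32 in Control 2 was at 20.8 CPM against 17.7 to 18.2 (gap 0.829).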

How the results depend on the processing

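The members past the adjusted p alone were 0 in the main analysis and 0 to 2 when 1 sample was left out. They were 1 without the filter, with DESeq2 and with the GC and length offset (Mrpl12 each time). With limma voom and sample weights they were 7 (17.9% of all genes then passed). The unadjusted p, a looser rule, gave 17 members in the main analysis. Members past the full threshold were 0 to 1 when 1 sample was left out (Mrpl12 without LLC 2 or LLC 3) and 0 under the other alternatives run. The call of Mrpl12 thus depended on the test and on single samples. Of all genes, 715 passed the full threshold in the main analysis and 475 with at least 10 counts in every sample. At an unadjusted p of at most 0.05 with the 1.5-fold limit kept, 1572 passed, and without that limit 3472 did. When 1 sample was left out, 415 to 966 passed the full threshold, with 966 without LLC 1. The replicate numbers did not pair the samples (correlations of deviations −0.03, 0.01, −0.08 and 0.13, and 2 of 8 samples correlated best with their own number). A block on numbers 1 to 4 gave 107 genes, with the GC and length offset 106, and the same 8 samples without a block 299, with 0 members in each. Plain library totals turned the members' median to 0.010 and the small subunit's to 0.028, put the large subunit's at −0.0024, and left 35 members negative. Mrpl10, Mrps18c and Mrps28 then had log2 fold changes of 0.0025, 0.068 and 0.0041. Mrps12, at 0.00, turned to −0.028 with upper-quartile factors, −0.0064 with at least 10 counts, −0.086 with the block and −0.072 for numbers 1 to 4 without it. Mrps18a turned to −0.0047 with upper-quartile factors and −0.0067 with voom, and Mrpl11 to −0.0004 with voom. With 1 sample left out, Mrps12 ran from −0.064 to 0.087, Mrps18a from −0.0071 to 0.080, Mrps18c from −0.14 to 0.00 and Mrpl11 from −0.010 to 0.093, and the lowest value of Mrps12, Mrps18a and Mrpl11 was that without LLC 5. For the other named members and alternatives, direction and call at the full threshold were kept. With 4 and 6 mice, members with wide intervals could have changed by 1.5-fold unseen.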
